A study of Mus musculus with 8 samples.

Results

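Bile acids are made from cholesterol in hepatocytes, and their synthesis is a main route by which the body disposes of cholesterol. In the classic pathway, Cyp7a1 adds the first hydroxyl group to cholesterol and Cyp8b1 adds the one that distinguishes cholic acid. In the alternative pathway, Cyp27a1 first oxidises the side chain, after which Cyp7b1 hydroxylates the resulting oxysterol. Cyp39a1 does the same for the oxysterol in which cholesterol leaves the brain. All routes then share enzymes of the sterol ring (Hsd3b7, Akr1d1), of side chain shortening in peroxisomes (Acox2) and of conjugation to taurine or glycine (Slc27a5, Baat). Bile acids return to the liver, where the receptor FXR (gene Nr1h4) and the gut hormone FGF15 acting on Fgfr4 and Klb repress their own synthesis.

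These 10 genes were followed in liver of NZO and B6 mice. NZO (NZO/HiBomDife in the labels) is an inbred strain that becomes obese and is prone to diabetes, whereas B6 (C57BL/6) is the lean reference strain. RNA came from whole liver of 4 male mice per strain, aged 6 weeks and fed a diet with 45% fat, and each mouse was read on its own 1-colour Agilent array. The strains differ across the whole genome, so no single gene or locus is isolated by the comparison. Of 5 slides, 1 held both strains, and the scan days were shared unequally, so strain and slide are partly confounded. All probes with the symbol of 1 of the 10 genes were taken, which gave 11 of the 55681 probes on the array, 2 of them for Slc27a5. Levels are log2 of the processed signal minus the 75th percentile of the same array, so that 0 stands for the signal exceeded by 25% of the spots. A level can be compared between mice for 1 probe, but not between probes.

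The genes were chosen by their pathway, and Cyp39a1 was selected on its log2 difference between NZO and B6 on these arrays, which was among the largest decreases. The differences of the 10 genes between the strains are therefore given with their errors as a description. Where probes of these genes are said to pass the thresholds, nothing is read from it. On each of the 8 arrays, all 11 probes gave a signal well above background. Each probe reads 60 bases of a transcript. As an example of what the arrays measured, the probes of the classic pathway enzyme Cyp8b1 (mm9 chr9:121824595-121824654, minus strand) and of the alternative pathway enzyme Cyp27a1 (mm9 chr1:74782203-74782262, plus strand) are shown in the 5′ to 3′ direction.
Cyp8b1: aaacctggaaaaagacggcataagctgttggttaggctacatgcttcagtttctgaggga
Cyp27a1: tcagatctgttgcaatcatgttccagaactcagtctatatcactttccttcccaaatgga

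The samples were first compared by markers of the cells they could hold. The hepatocyte markers Alb, Ttr, Apoa1, Cps1 and Tat were above background in all mice, with Alb at 11.21 ± 0.02 in NZO and 10.94 ± 0.23 in B6 (SD, n = 4 per strain). Of the 5 genes, 0 passed the thresholds of limma, where 9.44% of all genes did. An unadjusted p below 0.05 in limma was found for 0 of the 5, and the share of all genes at that p was not counted. In 2 of the 5 genes, Alb and Ttr, all NZO mice were above all B6 mice, and 22.4% of all genes did not overlap between the strains. Of 6 adipocyte markers, Adipoq, Plin1 and Lep were at background on all 8 arrays, whereas Cidec, Fabp4 and Car3 were above background in all mice. Car3, which led the summed signal of 597.6 in NZO and 432.1 in B6, was higher in NZO without overlap (difference 0.47, adjusted p = 0.0131 in limma) but under the fold limit. Cidec (difference 0.42) and Fabp4 (difference -0.30) went in opposite directions, and neither passed the thresholds. The sum rests mainly on Car3. With Adipoq, Plin1 and Lep at background, it is not read as a measure of adipocytes. Skeletal muscle markers varied widely between mice, and were highest in NZO 007 and, among the B6 mice, in B6 010. The summed signal of Ckm, Acta1, Myh4 and Tnnt3, relative to the 75th percentile, was 17.73 in NZO 007 against 0.136, 0.161 and 0.303 in the other NZO mice. It was 0.396, 5.70, 0.957 and 1.40 in the B6 mice 009, 010, 011 and 015. Summed red cell markers, led by Hba-a1, were 361.5 in NZO and 181 in B6 on average. Of these 4 markers, 2 were higher in NZO past the thresholds, where 4.46% of all genes were, and 3 did not overlap between the strains. The 2 were Hba-a1 (difference 1.01, adjusted p = 0.0181 in limma) and Alas2 (0.90, adjusted p = 0.0023). Summed biliary epithelial markers, led by Spp1, were 2.4 in NZO and 4.4 in B6. Summed leukocyte markers, led by Cd3e, were 15.55 and 15.95, but 3 of the 5 were lower in NZO without overlap, against the 22.4% of all genes without overlap in either direction. Of these, Itgax passed the thresholds (difference -2.04, adjusted p = 0.0358 in limma, above background in 2 NZO mice), and Adgre1 (-0.62, adjusted p = 0.0158) and Cd68 (-0.42, adjusted p = 0.0448) were under the fold limit. The other 2 markers went the other way, with overlap. Lyz2 had a difference of 0.41 (adjusted p = 0.109 in limma) and Cd3e one of 0.33 (adjusted p = 0.575). The part of these cells in the differences below was not tested. In whole liver, fewer cells of a type and less RNA per cell cannot be told apart.

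Cyp39a1 differed far more than any other of the 10 genes. It lies on chromosome 17 (GRCm38 chr17:43667372-43751431). Its level was -2.97, -3.05, -2.61 and -3.0 in the NZO mice 003, 007, 009 and 011. In the B6 mice 009, 010, 011 and 015 it was 2.69, 2.57, 2.68 and 2.97. All NZO mice were thus far below all B6 mice, and the spread within each strain was small. The means were -2.91 ± 0.20 in NZO and 2.73 ± 0.17 in B6 (SD, n = 4 each). The log2 difference, NZO minus B6, was -5.64 (SE 0.14), which is a 49.7-fold higher level in B6. On the linear scale, the processed signal was 15.2, 15, 23.3 and 14.8 in NZO and 1005, 832, 1020 and 1072 in B6. The NZO signals were low but well above background on all 4 arrays, so the difference is a measured value and not a bound. Cyp39a1 was read by 1 probe, and no second probe was available to check the difference. The paper reports SNPs between B6 and NZO, and whether any lies under this probe was not tested. Less transcript and weaker binding to the probe thus cannot be told apart.

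The Cyp39a1 difference was similar within the technical batches. On the only slide that held both strains (1 NZO and 2 B6 mice) it was -5.74. Among the arrays scanned on the first day (3 NZO and 2 B6) it was -5.63, and among those of the second day (1 NZO and 2 B6) it was -5.74. With normexp background correction, which adds an offset to all signals, the size of the difference dropped to -3.61. With the deposited values, the difference was -4.54.

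**Figure D1:**
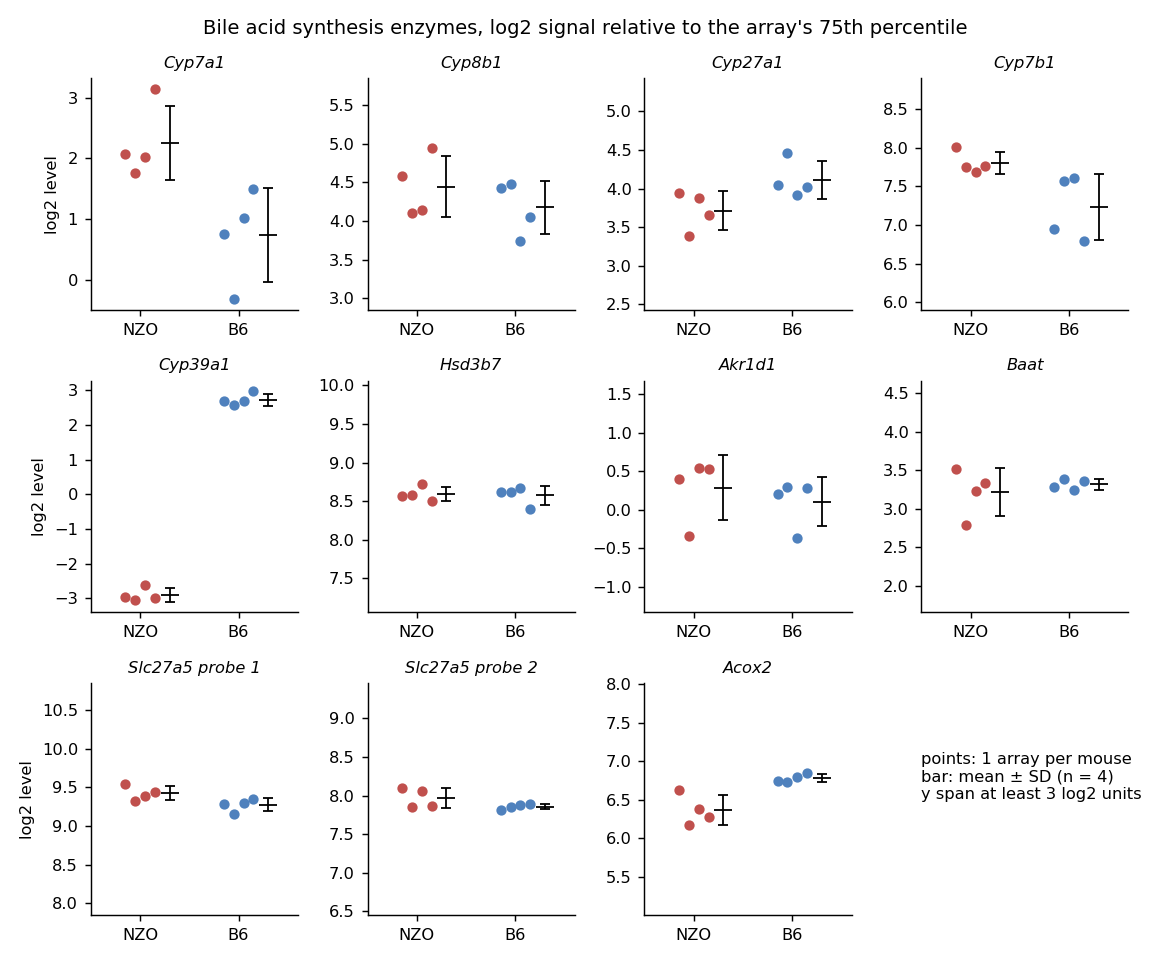
Level of each of the 11 probes (log2 signal relative to the 75th percentile of the array) in the 4 NZO and 4 B6 mice. Points are mice, bars are the mean ± SD, and the axes span at least 3 log2 units. For Cyp39a1 the NZO mice lie between -3.05 and -2.61 and the B6 mice between 2.57 and 2.97, whereas most other enzymes overlap between the strains.

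In the classic pathway, Cyp7a1, the rate-limiting enzyme, was more abundant in NZO mice, with a large spread. It lies at GRCm38 chr4:6265612-6275632. Its level was 2.07, 1.76, 2.03 and 3.14 in the NZO mice and 0.75, -0.33, 1.02 and 1.5 in the B6 mice, in the same order as above. The strains did not overlap, but the lowest NZO and the highest B6 mouse were close to each other. The means were 2.25 ± 0.61 and 0.74 ± 0.77, and the difference was 1.52 (SE 0.43), or 2.86-fold. It was 1.48 on the shared slide, 1.83 on the first scan day and 0.88 on the second. Cyp8b1 (GRCm38 chr9:121914356-121916305) stands downstream of Cyp7a1. Its level was 4.58, 4.11, 4.14 and 4.95 in NZO and 4.42, 4.49, 3.74 and 4.05 in B6. Here the strains overlapped, and the difference of 0.27 (SE 0.24) was smaller than the spread within each strain.

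In the alternative pathway, the mean of the first enzyme was lower and that of the second was higher in NZO. Cyp27a1 (GRCm38 chr1:74713148-74737897) had levels of 3.94, 3.39, 3.87 and 3.66 in NZO and 4.05, 4.47, 3.92 and 4.02 in B6, as the mean of 10 spots per array. The ranges touched, with NZO 003 above B6 011, and the difference was -0.40 (SE 0.17). Cyp7b1 (GRCm38 chr3:18071944-18243890) had levels of 8.01, 7.75, 7.69 and 7.77 in NZO and 6.95, 7.57, 7.61 and 6.79 in B6. The 4 NZO mice were all above the B6 mice, although B6 011 lay just below NZO 009. The difference was 0.57 (SE 0.21), or 1.49-fold.

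The shared enzymes of the sterol ring differed little. Hsd3b7 (GRCm38 chr7:127800609-127803802), which oxidises the sterol ring, had a level of 8.59 ± 0.09 in NZO and 8.58 ± 0.12 in B6, a difference of 0.02 (SE 0.10). Akr1d1 (GRCm38 chr6:37529978-37574921) reduces the ring into the bent shape of bile acids. It was at 0.29 ± 0.42 and 0.11 ± 0.32, a difference of 0.18 (SE 0.24). For both enzymes the difference was within the spread between mice of the same strain.

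Acox2 (GRCm38 chr14:8225511-8259019), the peroxisomal oxidase that starts shortening of the side chain, was lower in NZO. It was at 6.63, 6.18, 6.38 and 6.27 in NZO and 6.75, 6.73, 6.79 and 6.85 in B6. The strains did not overlap, and the difference was -0.41 (SE 0.12), which is 1.33-fold higher in B6. On the shared slide it was -0.16, and on the scan days it was -0.36 and -0.59.

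Slc27a5 (GRCm38 chr7:12988346-12998192) couples bile acids to coenzyme A before Baat links them to taurine or glycine. Its 2 probes gave 9.43 ± 0.09 in NZO and 9.27 ± 0.08 in B6, and 7.97 ± 0.13 and 7.86 ± 0.04, so that both differences were small (0.15, SE 0.09, and 0.11, SE 0.10). Baat (GRCm38 chr4:49489416-49507915) was at 3.22 ± 0.31 and 3.32 ± 0.07, a difference of -0.10 (SE 0.16). For both conjugation genes, the ranges of the strains overlapped.

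Of the 11 probes, 1 (Cyp39a1, lower in NZO) passed an adjusted p of 0.05 with a log2 difference of at least 0.7, where 9.63% of all probes tested did so (4.36% higher and 5.27% lower in NZO). With the unadjusted p of the methods, 2 probes passed (Cyp39a1 and Cyp7a1), against 12.2% of all probes. In 4 probes the strains did not overlap, higher in NZO for Cyp7a1 and Cyp7b1 and lower for Cyp39a1 and Acox2, against 22% of all probes. The median difference was 0.11, and it was 0.02 over all probes tested. Since the contrast was known when the genes were chosen, nothing is read from these counts.

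**Figure D2:**
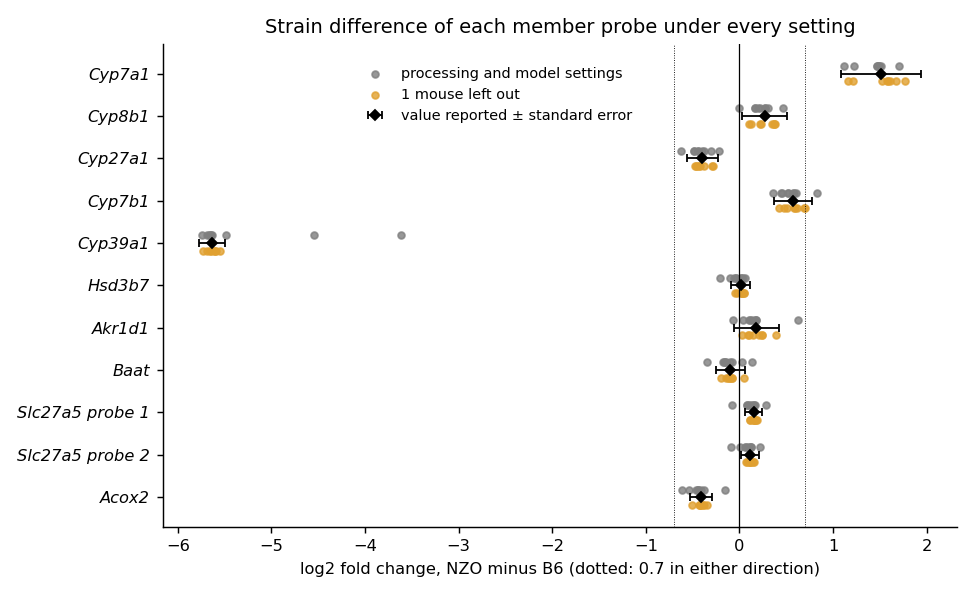
Log2 difference, NZO minus B6, of each probe. Black diamonds are the reported values with their standard error, grey points are other processing and model settings, and yellow points leave out 1 mouse. Cyp39a1 lies between -5.74 and -3.61, Cyp7a1 between 1.12 and 1.77 and Cyp7b1 between 0.36 and 0.83, while Cyp27a1 and Acox2 are below 0 in all settings, reaching -0.62 and -0.61.

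Mice of 1 strain also differed among themselves. NZO 007, the mouse with the highest muscle markers, was the lowest of its strain for 9 of the 11 probes, with a median deviation from the strain mean of -0.19. It was also alone on its slide and the only NZO mouse of the second scan day. For NZO 007, mouse, slide and scan day thus cannot be told apart. The differences given for the second scan day rest on this mouse for NZO. NZO 003 was the highest for 6 probes. Cyp7a1 varied most, from 1.06 below the B6 mean in B6 010 to 0.89 above the NZO mean in NZO 011. Without NZO 007, the probes without overlap became 6 in place of 4, the Akr1d1 difference became 0.39 and that of Baat turned from -0.10 to 0.04, while 1 probe, that of the selected gene Cyp39a1, passed the thresholds. Leaving out any 1 mouse gave a Cyp39a1 difference of -5.74 to -5.55.

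**Figure D3:**
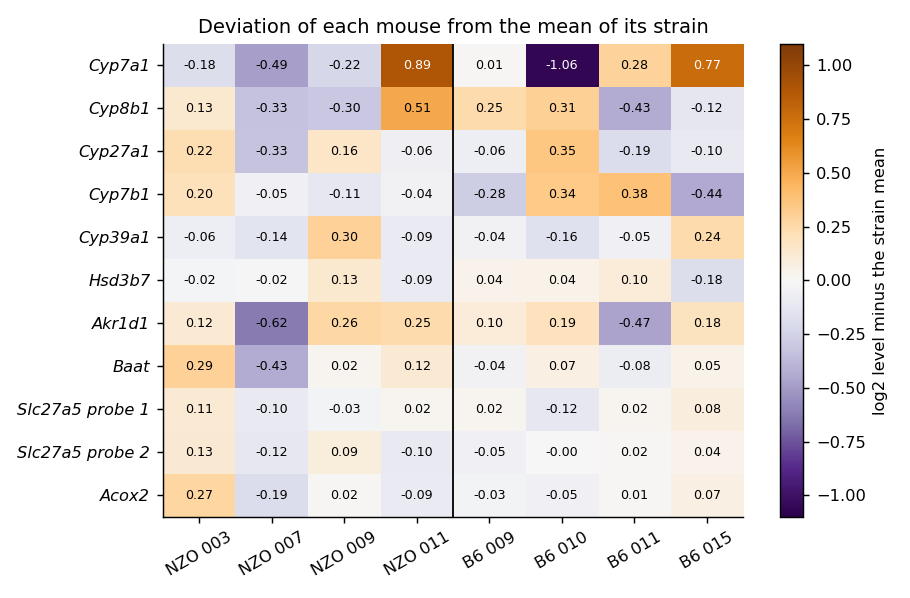
Deviation of each mouse (columns) from the mean of its strain, in log2 units, for the 11 probes (rows). Purple cells lie below and orange cells above the strain mean, and NZO 007 is lowest of its strain in 9 of 11 probes.

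Next, 16 other genes of bile acid synthesis were examined, such as transport of cholesterol into mitochondria, electron supply to the cytochromes and the peroxisomal steps. Of 15 genes past the filter on dim signals, 0 passed the thresholds, where 9.44% of all genes did so (each gene by its brightest probe). Without adjustment, 5 had a p below 0.05 in limma. The share of all genes at that p was not counted, so nothing is read from it. With the fold limit, 0 passed, whether by limma or by the methods' t-test. The median difference was 0.22, against 0.03 over all genes. The largest was that of Cyp2c70, which makes the muricholic acids of mice. It was at 8.46 ± 0.16 in NZO and 7.78 ± 0.36 in B6, with all NZO mice above all B6 mice and a difference of 0.68 (SE 0.19, adjusted p = 0.0437 in limma), just short of the fold limit. Akr1c14, a reductase of the sterol ring, had a difference of -0.58 (SE 0.16, adjusted p = 0.0527 in limma). Por, which supplies electrons to microsomal cytochromes, had one of -0.32 (SE 0.20, adjusted p = 0.356 in limma). Ch25h, which makes an oxysterol, was above background in 1 NZO mouse and in 0 B6 mice and was not tested.

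Among 18 regulators of bile acid synthesis, 1 was lower in NZO and 0 were higher, where 4.99% of all genes were lower and 4.46% were higher, with a median difference of 0.01. The 1 gene was Nr1i3, the receptor CAR that senses foreign compounds and bile acid overload. Its level was 2.39, 2.56, 3.0 and 2.53 in NZO and 3.84, 3.66, 3.59 and 3.41 in B6, without overlap. The difference was -1.0 (SE 0.16, adjusted p = 0.00341 in limma), and a second probe gave -1.04. In a fit with a term for the slide, Nr1i3 no longer passed the thresholds, although its difference stayed between -1.18 and -0.93 in all 20 alternative settings.

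The receptors of the feedback loop did not pass the thresholds. Nr1h4 (FXR) had a difference of 0.30 (SE 0.13, adjusted p = 0.179). Its target Nr0b2 (SHP), a repressor of Cyp7a1, was at 0.56, 2.04, 2.16 and 0.83 in NZO and 1.68, 2.48, 2.72 and 2.09 in B6. The NZO mice thus formed a wide range that overlapped with B6, and the difference was -0.85 (SE 0.41, adjusted p = 0.222 in limma). For Fgfr4 the brightest probe gave 0.39 (SE 0.13, adjusted p = 0.085) and the other probe 0.70 (adjusted p = 0.00638), which rounds to the fold limit but lies just under it. Klb, its partner in binding FGF15, had a difference of 0.19 (adjusted p = 0.339). Rora, a nuclear receptor that is known to activate Cyp genes of this kind, had one of -0.19 (adjusted p = 0.625).

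The transporters that move bile acids and sterols into bile and blood were examined as well. Of 13 genes past the filter, 4 were lower in NZO and 0 were higher, where 4.99% of all genes were lower and 4.46% were higher. The median difference was -0.36. Slc51a, which exports bile acids to the blood, was at background on all arrays.

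The largest difference was that of Abcc3, an exporter into blood, with levels of 2.26, 2.19, 2.20 and 2.23 in NZO and 3.76, 3.49, 3.30 and 3.31 in B6. Its difference was -1.24 (SE 0.12, adjusted p = 0.000267 in limma). Abcb11, the bile salt export pump of the canaliculus, was at 5.85, 5.79, 5.88 and 5.47 in NZO and 6.85, 6.94, 6.83 and 6.89 in B6. In both genes, the strains were well separated. For Abcb11 the difference was -1.13 (SE 0.11, adjusted p = 0.000331 in limma), or 2.19-fold higher in B6. With a term for the slide, Abcc3 still passed the thresholds, whereas Abcb11, Abcg5 and Slco1a4 did not, and the Abcb11 difference lay between -1.35 and -1.04 in all 20 settings. Slco1a4, an uptake carrier, had a difference of -0.92 (SE 0.22, adjusted p = 0.0253) and passed the thresholds in only 10 of 20 alternative settings. Abcg5, which exports sterols into bile as a dimer with Abcg8, had one of -0.82 (SE 0.17, adjusted p = 0.015), whereas Abcg8 itself had one of -0.81 (SE 0.30, adjusted p = 0.123) and did not pass. Slc10a1, the main uptake carrier for bile salts, was at 9.94 ± 0.26 and 9.96 ± 0.14, a difference of -0.02 (SE 0.15, adjusted p = 0.951). Biliary epithelial markers moved in the same direction in sum. Of 5 tested, 2 were lower (Sox9, difference -1.46, and Spp1, difference -0.89) and 1 was higher (Cftr, difference 1.15), where 4.99% of all genes were lower and 4.46% were higher, and Epcam was at background on all NZO arrays. The summed signal of the 6 markers was 2.53, 2.52, 2.78 and 1.8 in the NZO mice and 4.09, 3.54, 4.36 and 5.6 in the B6 mice. Summed ileum markers, led by Slc10a2, were 1.93 in NZO and 3.45 in B6 on average. This sum rests mainly on Slc10a2 and is not read as a measure of ileum tissue. Fgf15 was dim (-4.39 in NZO and -3.07 in B6). Fabp6 was above background on only 1 array, of a B6 mouse, and was not tested. Of 2 ileum markers tested, 1 was lower and 0 were higher, where 4.99% of all genes were lower and 4.46% were higher. The lower one was Slc10a2 (difference -0.83, adjusted p = 0.0287 in limma), and a second probe gave -0.88. The part of the biliary and ileum markers in the transporter result was not tested.

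Cyp7a1 is known to follow the time of day, and the labels do not give the hour of sampling. Therefore, 15 clock genes were listed, and of 12 past the filter, 0 passed the thresholds, where 9.44% of all genes did. In limma, 0 had an unadjusted p below 0.05, for which the share of all genes was not counted. By the methods' t-test, 0 passed. The single mice nevertheless differed widely. Dbp, an output gene of the clock, was at 2.33, 1.91, 1.52 and 1.76 in NZO and 0.54, 0.58, 1.72 and 3.56 in B6. Nr1d1, a repressor of the clock, was at -0.16, 0.57, 0.78 and -2.66 in NZO and at -0.88, 0.30, 1.14 and 0.99 in B6. The mouse with the highest Dbp had the highest Cyp7a1 of its strain in B6 (015) but not in NZO (003), and the mouse with the lowest Nr1d1 had it in NZO (011) but not in B6 (009). The part of these genes in the Cyp7a1 difference was not tested.

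Some liver enzymes of sterol and bile acid metabolism differ between the sexes, so genes with a known sex bias were described in these male mice. Of 9 male-biased genes tested, 2 were higher in NZO, where 4.46% of all genes were, Cyp4a12a by 1.30 (SE 0.16) and Cyp4a12b by 1.32 (SE 0.18), with adjusted p = 0.00115 and 0.00192 in limma. These fatty acid hydroxylases are nearly identical in sequence, so their signals may not be independent. Mup20, a urinary protein gene named after its values were seen, was read by 2 probes that disagreed. Its brightest probe had a difference of -0.18 (adjusted p = 0.302), and the other passed the thresholds with -1.85 (adjusted p = 0.000399), lower in NZO. The median of the list was 0.08. Of 8 female-biased genes tested, 7 were higher and 1 was lower in NZO, with 9.44% of all genes past the thresholds. Hao2, a peroxisomal oxidase, was at least 36.4-fold higher, and Cyp3a44, a steroid hydroxylase, was at least 55.3-fold higher, since both were at background on all B6 arrays. A1bg, a plasma protein gene, and Cyp2b9, a steroid hydroxylase, were at least 3.69-fold and at least 5.57-fold higher in the same way. For such bounds, the dim group was set, array by array, to the dimmest level that counted as above background unless its own was higher. Cyp3a16, named after its values were seen because it was above background in all mice of both strains, was at 6.72, 6.16, 6.88 and 6.73 in NZO and 4.0, 3.26, 3.82 and 4.04 in B6. Its difference was 2.85 (SE 0.22, adjusted p = 8.27e-05 in limma). Cyp2a4 was lower, with a difference of -1.28 (SE 0.26, adjusted p = 0.0117), but is nearly identical to Cyp2a5. With a term for the slide, Cyp2b9, Prlr and Cyp2a4 of this list no longer passed, and Cyp2a4 also did not pass by the methods' t-test after adjustment. The 8 tested genes had to be above background in 1 strain at least, and 4 of the 12 on the array were not tested. The median of the list was 3.65, and 2.18 with the genes at background taken at their bound.

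**Figure D4:**
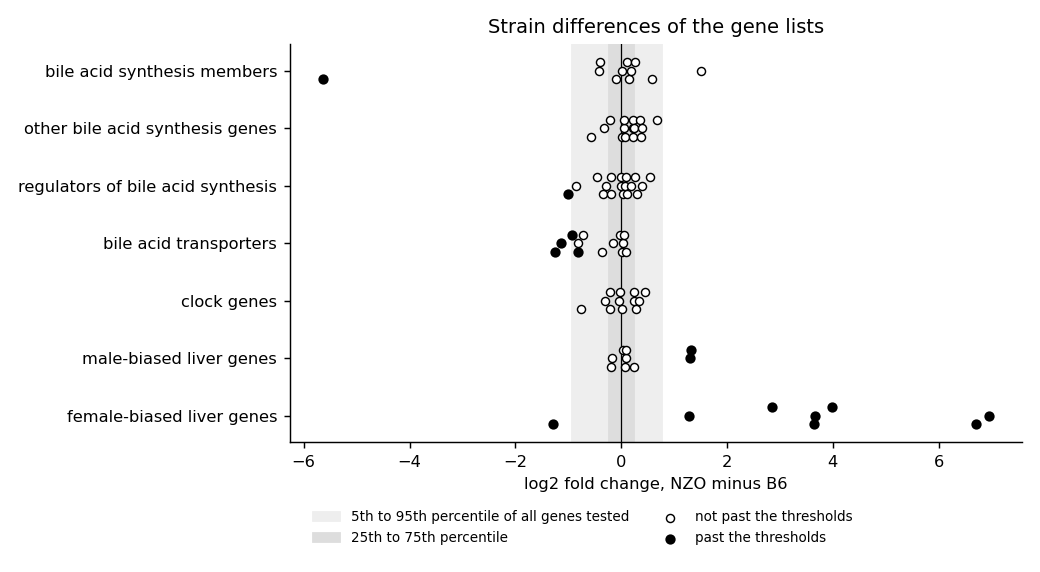
Log2 difference, NZO minus B6, of the genes in each list (each gene by its brightest probe, and the bile acid synthesis members by all 11 probes). Filled points passed the thresholds and grey bands give the spread of all genes tested. The transporters past the thresholds lie between -1.24 and -0.82, and Cyp39a1 is the filled point at -5.64. For genes at background in B6 the plotted value is the fitted one and no bound.

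Around Cyp39a1, the probes within 500 kb on mm9 were examined. Apart from Cyp39a1, 10 probes of 8 genes passed the filter, and 5 of these probes, from 4 genes, passed the thresholds (3 higher and 2 lower in NZO), where 9.63% of all probes did. Pla2g7, a secreted phospholipase that breaks down platelet-activating factor, was higher with both of its probes, by 1.70 (adjusted p = 0.000574 in limma) and 2.53 (adjusted p = 0.000444). Enpp4, an ectoenzyme that splits nucleotides, was higher by 0.77 (adjusted p = 0.00204). Adgrf5, an adhesion receptor of endothelium and epithelium, was lower, with a difference of -0.72 (adjusted p = 0.00365). Slc25a27, a mitochondrial carrier, was at background on all NZO arrays and at least 1.89-fold lower there. Enpp5, Rcan2, Gm10498 and Adgrf1 did not pass. The genes near Cyp39a1 thus differed in both directions.

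**Figure D5:**
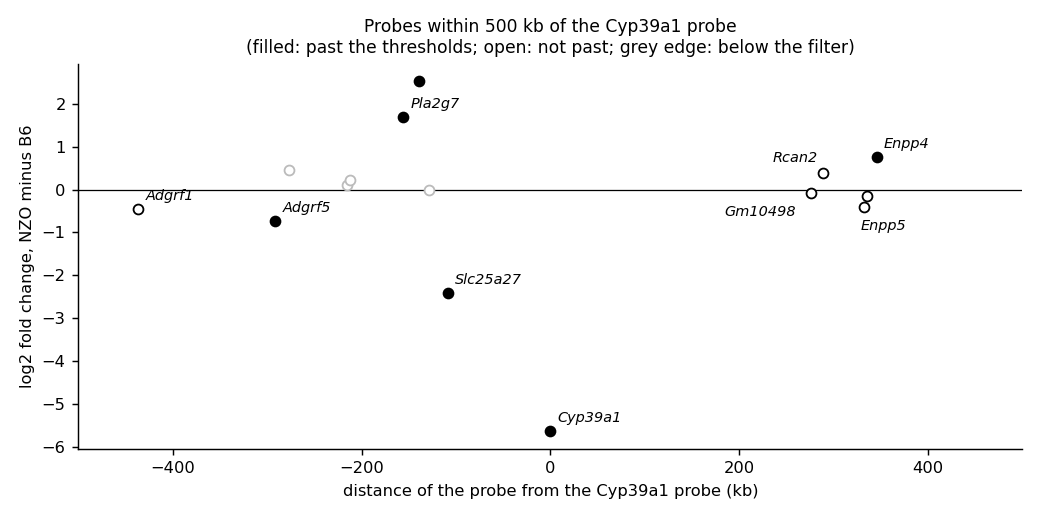
Log2 difference, NZO minus B6, of probes by their distance from the Cyp39a1 probe in kb. Filled points passed the thresholds, open points did not, and points with a grey edge did not pass the filter on dim signals. Both Pla2g7 probes lie above 1.69, and Cyp39a1 lies at -5.64.

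Finally, the genes with the pattern most like that of Cyp39a1 were searched among 20133 genes, by the root mean square difference over the 8 arrays after subtraction of each gene's own mean. The closest was a probe without a gene name (0.293 log2 units, difference -5.13). It was followed by H2-Q1, a class I histocompatibility gene (0.294), which was at background in all NZO mice and at least 13.9-fold lower there, and by Lrit1, a transmembrane protein gene (0.304), which was above background in only 1 of the 4 NZO mice, so that its distance rests partly on signals at background. Wfdc21 (0.332, difference -5.25) was measured in all mice, and Mndal, an interferon-induced gene (0.337), was at background in all NZO mice and at least 29.5-fold lower there. The measure is set mainly by the size of the difference between the strains. For H2-Q1 and Mndal it rests on NZO signals at background, so their distances and ranks are not exact.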

How the data were processed

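The authors deposited the scanner output of 8 Agilent 1-colour arrays, in which the processed signal is an intensity after background subtraction, and a summary of all arrays. The scanner output was made with Feature Extraction 11.0.1.1 of Agilent, per the file headers, whereas the submitters' processing notes name version 9.1. That summary holds values which equalled the raw median intensity for 100% of spots (tolerance 0.01), and the log2 of these deposited values served as an alternative.

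Of 59305 spots without controls, 96 to 137 outliers on each array were not used. Processed signals were taken as log2 minus the 75th percentile of the array, which was 118.6 to 141.8 in NZO and 136.6 to 158.9 in B6. Between 50.4% and 60.1% of spots were above background and 0 were saturated, and the number of arrays limits the precision. Spots of a probe were averaged. A probe was tested if 1 strain or both had it above background in every mouse (27634 probes). limma 3.58.1 in R 4.3.3 (package data.table, version 1.17.8) compared the strains over all probes, with Benjamini-Hochberg adjustment. Thresholds were an adjusted p of 0.05 and a log2 difference of 0.7, whereas the methods name an unadjusted p. The fits were tested on simulated data. Python 3.11.15, pandas 2.3.3 and matplotlib 3.10.9 made the plots.

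Probes were named by accession (27656), symbol (3401) or synonym (321) from RefSeq genes on GRCm38.p6, and 24303 kept the name in the files. Probe positions and probe sequences are those of the files (mm9). Selenbp2 and Cyp3a41a of the sex-biased lists had no probe by these names, and Slco1a1 is in 2 lists. The genes named were all members, the genes past the thresholds in each list (at most 4 per direction), the main regulators and carriers, the genes within 500 kb of Cyp39a1 and the 5 most like it. The values of 1 regulator are not reported here, and it is part of the counts and the median of its list. The members and lists were chosen with earlier results of these data known. Labels name separate mice, and the mouse numbers 009 and 011 occur in both strains. Deviations from the strain mean correlated with -0.26 and -0.004 for these numbers, which therefore do not pair the mice.

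The alternatives were normexp background correction (offset 50), quantile normalization, the 75th percentile over detected probes, the deposited values, no filter, the unadjusted p, the methods' t-test with Welch correction, slide or scan day as a term, the mouse number as a block, the mean over probes of a gene and leaving out each mouse.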

Additional observations from a re-analysis of the deposited data

Results flagged for a closer look

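In 5 of 64 groups of 4 mice, 1 mouse lay far from the other 3 by Dixon's criterion, and 2 of these were among the 22 groups of the bile acid synthesis probes. Chance gives about 1 in 20 groups. Akr1d1 was low in NZO 007 (-0.33) and in B6 011 (-0.37). Por was low in NZO 009 (3.02). Abcg5 was high in B6 015 (5.31), and Cyp4a12a was high in B6 009 (4.95).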

How the results depend on the processing

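The Cyp39a1 difference lay between -5.74 and -3.61 and was past the thresholds in the 20 alternatives, which is no support, since the gene was selected on these values. Cyp7a1 was past them in 5 of 20, which made 2 probes of the 10 genes under normexp, the deposited values, the unadjusted p, the unadjusted t-test and without B6 015. The other 9 probes passed in 0. Over all probes, the main 2660 became 1194 under normexp, 1722 under the adjusted t-test and 1484 with a fixed slide term. The other settings with all mice, except the mouse number, gave 1996 to 3382. The slide term left 0 regulators, 1 transporter (Abcc3) and 5 female-biased genes past the thresholds. The adjusted t-test left 2 transporters, the mean over probes gave 2 regulators, and the deposited values gave 1 other synthesis gene and lowered the share of higher calls from 45.3% to 28.8%, with a median over all probes of -0.15.

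Leaving out 1 mouse gave 2342 to 2670 probes in all, 1 to 2 probes of the 10 genes past the thresholds (4 to 6 without overlap), 0 to 1 other synthesis genes (1 without B6 011), 3 to 6 transporters (6 without NZO 009) and 7 to 8 female-biased genes. The cause of these changes was not tested. Signs of differences near 0 changed, for example Cyp8b1 (-0.006 with the deposited values), and Hsd3b7 kept its sign in 10 of 17 settings.

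The mice share only numbers, and the numbers 009 and 011 occur in both strains. With the mouse number as a replicate block, 206 probes passed, among them Cyp39a1, with 1 probe of the 10 genes, 0 regulators, 0 transporters, 0 male-biased and 4 female-biased genes. That fit leaves few mice for the estimate of the spread. Signal over background limits low levels, of which the NZO level of Cyp39a1 is one.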
